A study of Mus musculus with 2 samples.

Results

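The insulin-like growth factor axis was examined through 7 of the 32285 genes listed in each of 2 single-cell libraries of mouse kidney. The genes were the ligands Igf1 and Igf2, the receptor Igf1r, and the binding proteins Igfbp3, Igfbp4, Igfbp5 and Igfbp7, and all 7 were found by symbol. They were picked because values of these same libraries had already been seen, so their levels and ratios are a description of the 2 libraries, and no test supports them.

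IGF1 and IGF2 are small secreted hormones that act through IGF1R, a receptor tyrosine kinase that signals to PI3 kinase, AKT and MAP kinase. In blood and tissue most of both ligands is held by binding proteins, which lengthen their life, block their access to the receptor or tether them to matrix until a protease cuts the complex. In the kidney the axis is known for its part in growth, filtration and repair after tubular injury, and endothelial cells are among its sources of binding proteins.

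One library came from cisplatin-treated mice (20 mg/kg) and one from mice given saline, both taken after 72 h. Cisplatin is a platinum chemotherapy drug that injures the proximal tubule. Both groups were male C57BL6/J mice of 10 to 12 weeks, with no transgene named. The design text names 10 kidneys per condition, so each library pools animals, and 5 mice, without saying clearly whether that number is per condition. Magnetic beads against CD31 and then podoplanin selected the cells, and droplet libraries counted transcripts from their 3′ ends by molecular tags (UMIs). The question of the study was how renal lymphatic endothelial cells respond to acute kidney injury.

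The cisplatin library held 19994105 UMIs and the saline library 5879496. At 500 UMIs or more, 3441 and 630 barcodes remained, and at most 20% mitochondrial UMIs was met by 1729 cisplatin and 627 saline barcodes, with none shared between the libraries. The limit on mitochondrial UMIs removed 1712 cisplatin barcodes and 3 saline barcodes. Median depth of the kept barcodes was 746 UMIs in cisplatin and 896 in saline, and median mitochondrial share 10.0% and 1.74%. Barcodes were gated by distinct marker genes, none of them a member: at least 2 markers of a class and more than of any other class. The capillary gate held 84 cisplatin and 205 saline barcodes, the glomerular gate 34 and 22, the arterial gate 15 and 150, the tubule gate 1401 and 168, the leukocyte gate 71 and 3, and the podocyte gate 11 and 1. The labels call the cells lymphatic endothelial. Of 7 lymphatic markers, Lyve1, Mmrn1, Reln and Ccl21a had 0 UMIs in the capillary gate of both libraries. The others were Flt4 and Pdpn, seen in both, and Prox1, seen in saline only, and at least 1 of the 7 was present in 29.8% of cisplatin (42 UMIs) and 6.83% of saline capillary barcodes (14 UMIs). Over all endothelial barcodes Mmrn1, Reln and Ccl21a were at 0, and 3 of 183 cisplatin and 1 of 448 saline barcodes, all of them glomerular, held 2 or more lymphatic markers. Pecam1 (CD31) had a UMI in 61.9% of cisplatin and 53.7% of saline capillary barcodes. The endothelial barcodes are therefore called by their gates.

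The libraries differed in make-up inside the same gate. Median depth in the capillary gate was 2102.5 UMIs in cisplatin and 856 in saline, and 8 cisplatin barcodes above 10000 UMIs held 51.7% of that gate's UMIs, against 0 such barcodes in saline. At least 1 of 24 tubule markers was seen in 89.3% of cisplatin and 57.1% of saline capillary barcodes, at a summed level of 3399 and 1116 UMIs per 1000000 (CPM), and at least 1 of 19 stromal markers in 28.6% and 5.85%. Of 16 podocyte markers, 12 were detected in capillary barcodes of each library, at 452 CPM summed in cisplatin and 523 CPM in saline. With 1 library per group there is no replicate, so every interval below is an exact 95% interval that covers counting error only. A member counts as higher or lower when its CPM ratio, cisplatin over saline, passes 1.5-fold either way, its interval leaves out 1, and both libraries together hold at least 20 UMIs. The number of barcodes in a gate is counted apart from its CPM. In counts summed over a gate, fewer expressing cells inside it and lower expression per cell cannot be told apart.

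On the reference annotation of build GRCm38 the members lie on separate loci. Igf1 spans chr10:87858265-87937042 on the plus strand, Igf1r chr7:67952827-68233668 on the plus strand and Igf2 chr7:142650766-142666816 on the minus strand. Igfbp4 lies at chr11:99041244-99054392 on the plus strand. Igfbp3 (chr11:7206086-7213923), Igfbp5 (chr1:72857932-72874884) and Igfbp7 (chr5:77349240-77408041) are on the minus strand. Igfbp3 and Igfbp5 each sit beside another family member in the opposite direction: Igfbp1 is 3540 bases from Igfbp3, and Igfbp2 is 5458 bases from Igfbp5. Igf2 shares its strand and locus with the gene model Gm49394, so reads of that pair may be split or lost in counting, and the Igf2 values are uncertain for that reason. Igf1 overlaps an antisense gene, Igf1os, and Igfbp7 overlaps Polr2b on the opposite strand.

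The 250 bases before the transcription start of the binding proteins that lead the endothelial values are printed here, because the endothelial results turn mainly on Igfbp3, Igfbp5 and Igfbp7. The windows are RefSeq promoters of build GRCm38.p6 on the minus strand, found for 7 of 7 members, and lie at chr11:7213924-7214173 for Igfbp3, chr1:72874866-72875115 for Igfbp5 and chr5:77408046-77408295 for Igfbp7. Capitals mark a match to a TATA-type motif.
Igfbp3: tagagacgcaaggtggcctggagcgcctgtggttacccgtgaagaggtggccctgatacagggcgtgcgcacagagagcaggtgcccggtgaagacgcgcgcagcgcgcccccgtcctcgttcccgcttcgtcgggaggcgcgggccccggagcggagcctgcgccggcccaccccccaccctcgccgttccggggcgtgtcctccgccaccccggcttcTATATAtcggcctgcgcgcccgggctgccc
Igfbp5: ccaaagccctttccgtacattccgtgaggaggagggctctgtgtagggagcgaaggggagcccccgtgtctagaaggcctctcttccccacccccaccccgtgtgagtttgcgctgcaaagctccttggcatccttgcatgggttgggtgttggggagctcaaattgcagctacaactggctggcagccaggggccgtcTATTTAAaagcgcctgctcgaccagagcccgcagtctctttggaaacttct
Igfbp7: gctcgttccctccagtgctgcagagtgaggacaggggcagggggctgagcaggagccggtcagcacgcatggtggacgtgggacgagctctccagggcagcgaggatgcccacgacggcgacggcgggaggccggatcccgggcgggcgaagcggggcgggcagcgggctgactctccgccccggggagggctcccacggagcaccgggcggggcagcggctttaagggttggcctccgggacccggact
Each window was searched on both strands for 3 letter strings, which can overlap each other in a longer run. The string TATATA is an alternating form. A variant with an inner run of thymines is TATTTAA. The common form of the box is TATAAA. The Igfbp3 window held TATATA ending 24 bases before the RefSeq start, and the Igfbp5 window TATTTAA ending 44 bases before its RefSeq start. The Igfbp5 window begins at 72874866, inside the gene span given above, which ends at 72874884. The annotations thus place the Igfbp5 start differently, and 44 bases holds for the RefSeq start only. The Igfbp7 window held none of the 3 letter strings. Among all 32851 RefSeq windows of that length, TATATA was found in 5.248%, TATTTAA in 4.183% and TATAAA in 12.37%. GC content was 73.2% for Igfbp3 with 32 CpG, 58.8% for Igfbp5 with 10 CpG and 74% for Igfbp7 with 26 CpG, against medians of 52.4% and 6 CpG over all windows. These matches are a description of letters in the window.

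**Figure D1:**
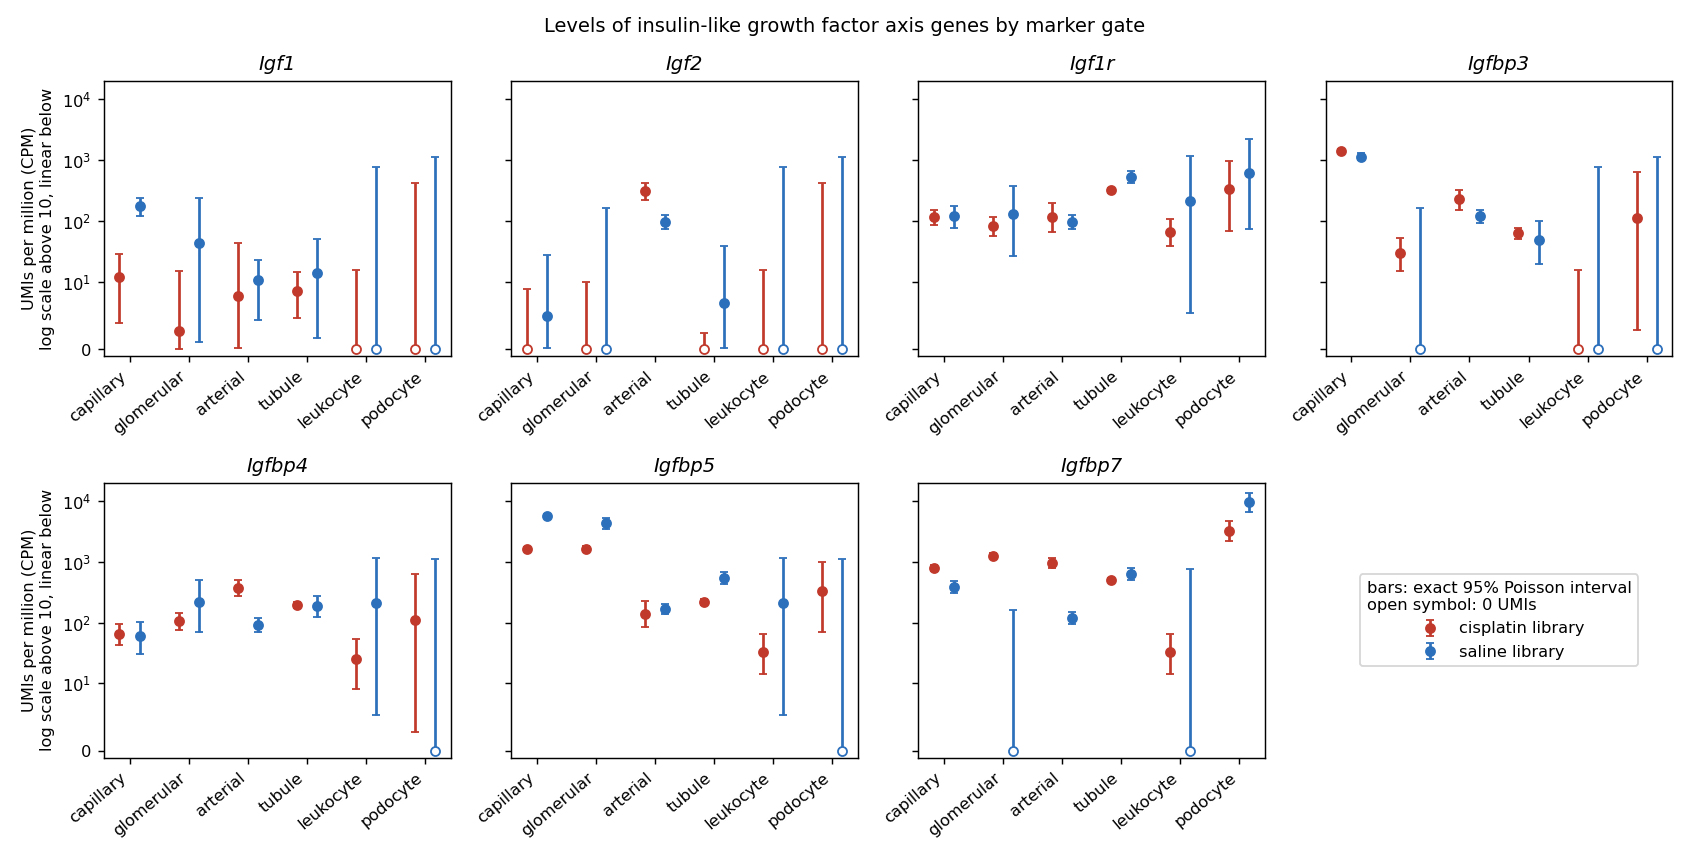
Level of each member in UMIs per 1000000 (CPM, log scale above 10, linear below) for 6 marker gates, cisplatin left of saline, with exact 95% Poisson intervals and open symbols at 0 UMIs. Igf2 stands up only in the arterial gate, Igfbp3 is highest in the capillary gate among those drawn, and Igfbp5 lies lower in cisplatin than in saline in the capillary, glomerular and tubule gates.

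Igf1, the growth hormone-dependent ligand, was lower in the capillary gate of the cisplatin library. It had 5 UMIs (12.1 CPM) in cisplatin and 35 UMIs (173 CPM) in saline, a ratio of 0.0700 (0.0214 to 0.179). The UMIs fell in 2 of 84 cisplatin barcodes (2.38%, 0.290 to 8.34) and 28 of 205 saline barcodes (13.7%, 9.27 to 19.1), although the cisplatin barcodes were the deeper ones. With each barcode thinned at random to 500 UMIs, Igf1 was seen in 0 of 84 cisplatin barcodes, which allows a share of up to 3.57% by a floor of 3 barcodes (exact upper limit 4.30%), and in 9.76% of saline barcodes (6.06 to 14.7). Of the 5 cisplatin UMIs, 4 came from 1 barcode, and the free-RNA profile of near-empty droplets would give 0.572 UMIs in cisplatin and 0.556 in saline. Igf1 was lower in cisplatin in those droplets too, at 14.9 CPM in cisplatin and 46.7 CPM in saline (ratio 0.320, 0.212 to 0.469). The ratio without barcodes above 10000 UMIs was 0.145 (0.0443 to 0.371). Among the 21 cisplatin and 144 saline capillary barcodes with fewer than 2 markers of each other class, 1 and 22 UMIs remained, at a ratio of 0.219 (0.00529 to 1.35). Saline endothelial barcodes without a subtype held another 31 Igf1 UMIs (343 CPM), of which 22 lay in 2 barcodes, against 4 UMIs (53.2 CPM) in cisplatin.

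Outside the capillary and unsubtyped endothelial barcodes Igf1 had few UMIs in any gate. It had 1 UMI in each library in the glomerular gate, and 1 and 7 UMIs in the arterial gate of cisplatin and saline. In the tubule gate it had 13 UMIs (8.60 CPM) in cisplatin and 2 UMIs (13.8 CPM) in saline. The stromal gate held 4 UMIs in 19 cisplatin barcodes, 3 of them in 1 barcode, and 0 UMIs in 3 saline barcodes. At 47.9 CPM the stromal level was the highest of the cisplatin gates. It was 3.96-fold the capillary one, with an interval that held 1 (0.787 to 18.4). The limit on mitochondrial UMIs removed 1712 cisplatin barcodes with 29 Igf1 UMIs and 3 saline barcodes with 0, and these entered no gate. Leukocytes, which include macrophages that can make Igf1, gave 0 UMIs in 71 cisplatin barcodes, which allows a share of up to 4.23% with a UMI by the same floor (exact upper limit 5.06%). Within saline the capillary level was 15.9-fold the arterial one (6.97 to 42.5) and 12.5-fold the tubule one (3.22 to 107), while the glomerular level could not be set apart from it. Within cisplatin no pair of neighbouring gates in the order of Igf1 levels differed beyond counting error.

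Igf2, the fetal growth ligand expressed from the paternal allele, was found almost wholly in the arterial gate. All 40 endothelial UMIs of the cisplatin library were arterial (314 CPM), and 63 of 65 of the saline library (97.6 CPM). The share of positive arterial barcodes was 5 of 15 in cisplatin (33.3%, 11.8 to 61.6) and 39 of 150 in saline (26.0%, 19.2 to 33.8). The CPM ratio was 3.21 (2.11 to 4.85), but 35 of the 40 cisplatin UMIs lay in 2 barcodes. Without barcodes above 10000 UMIs, 3 UMIs in 9 cisplatin barcodes stood against 53 in 136 saline barcodes, and the ratio turned to 0.982 (0.196 to 3.03). In cisplatin, Igf2 had 0 UMIs in the capillary, glomerular, tubule, leukocyte and podocyte gates, and the 1401 tubule barcodes allow a share of up to 0.214% by that floor (exact upper limit 0.263%). In saline the arterial level was 14.1-fold the tubule level, next in order with 1 UMI (2.45 to 567).

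Igf1r, the receptor of both ligands, had close to the same level in capillary barcodes of the libraries and was lower in tubule barcodes of the cisplatin library. In the capillary gate it had 48 UMIs (116 CPM) in cisplatin and 24 UMIs (118 CPM) in saline, a ratio of 0.979 (0.588 to 1.67). The interval leaves room for a change of either sign, and 12 alternatives gave 0.718 to 1.85. Positive capillary barcodes were 22.6% in cisplatin and 10.7% in saline, and after thinning to 500 UMIs 7.14% and 6.83%. In the glomerular gate there were 31 UMIs (83.3 CPM) in cisplatin and 3 (131 CPM) in saline, and in the arterial gate 15 (118 CPM) and 62 (96.1 CPM). The ratios there were 0.638 (0.199 to 3.26) and 1.23 (0.647 to 2.18), with intervals on both sides of 1.

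Tubule barcodes carried a higher Igf1r CPM than capillary ones in both libraries, with 486 UMIs (321 CPM) in cisplatin and 77 UMIs (531 CPM) in saline. The cisplatin over saline ratio was 0.605 (0.475 to 0.780), and positive barcodes made up 25.9% (23.6 to 28.3) of cisplatin and 33.9% (26.8 to 41.6) of saline tubule barcodes. After thinning the shares were 16.7% and 23.8%. The direction was kept in 11 of 11 alternatives, from 0.603 to 0.787. The subtype and mixed-profile settings left the tubule Igf1r counts at 486 and 77 UMIs and so are no check on it. Near-empty droplets were lower in cisplatin too, with Igf1r at 177 CPM in cisplatin and 349 CPM in saline (ratio 0.505, 0.450 to 0.567). The part of free RNA in the tubule ratio was not tested.

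Igfbp3, the main carrier of IGFs in blood, was highest in the capillary gate among the endothelial gates of both libraries. It had 590 UMIs (1426 CPM) in cisplatin and 231 UMIs (1140 CPM) in saline. The cisplatin capillary level was 6.27-fold the arterial level (4.32 to 9.44) and 48.2-fold the glomerular level (26.8 to 97.2), and in saline it was 9.56-fold the arterial level (7.36 to 12.5), with 0 glomerular UMIs. The cisplatin over saline ratio of 1.25 (1.07 to 1.46) lay above 1 without passing the 1.5-fold limit. It was higher in each of 12 alternatives, and passed 1.5 in 4 of them: barcodes of 500 to 2000 UMIs (1.53, 1.16 to 2.02), no barcodes above 10000 UMIs (1.88), thinning to 500 UMIs (1.72) and equal weight for each barcode (1.71). It was 1.04 with a minimum of 1000 UMIs. Positive barcodes were 60.7% (49.5 to 71.2) in cisplatin and 42.9% (36.1 to 50.01) in saline, but 41.7% (31.0 to 52.9) and 33.7% (27.2 to 40.6) at 500 UMIs each, so the intervals then overlapped.

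Igfbp3 was lower in arterial and tubule barcodes than in capillary ones. Arterial barcodes had 29 UMIs (227 CPM) in cisplatin, all in 2 barcodes, and 77 UMIs (119 CPM) in 42 saline barcodes, a ratio of 1.91 (1.20 to 2.96). Leaving out barcodes above 10000 UMIs gave counts of 0 and 63, a ratio of at most 0.826 by a floor of 3 UMIs, so that direction rests on 2 barcodes. Tubule barcodes had 95 UMIs (62.8 CPM) in cisplatin and 7 (48.3 CPM) in saline, below the near-empty level of 126 CPM in cisplatin and 93.4 CPM in saline. Leukocyte barcodes had 0 Igfbp3 UMIs in both libraries. Of 3 saline stromal barcodes 1 held 20 UMIs, and that stromal level (3762 CPM) was 3.30-fold the capillary one (1.98 to 5.21). In cisplatin 19 stromal barcodes had 4 UMIs (47.9 CPM). Endothelial barcodes without a subtype had 21 UMIs (279 CPM) in cisplatin and 42 UMIs (465 CPM) in saline.

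**Figure D2:**
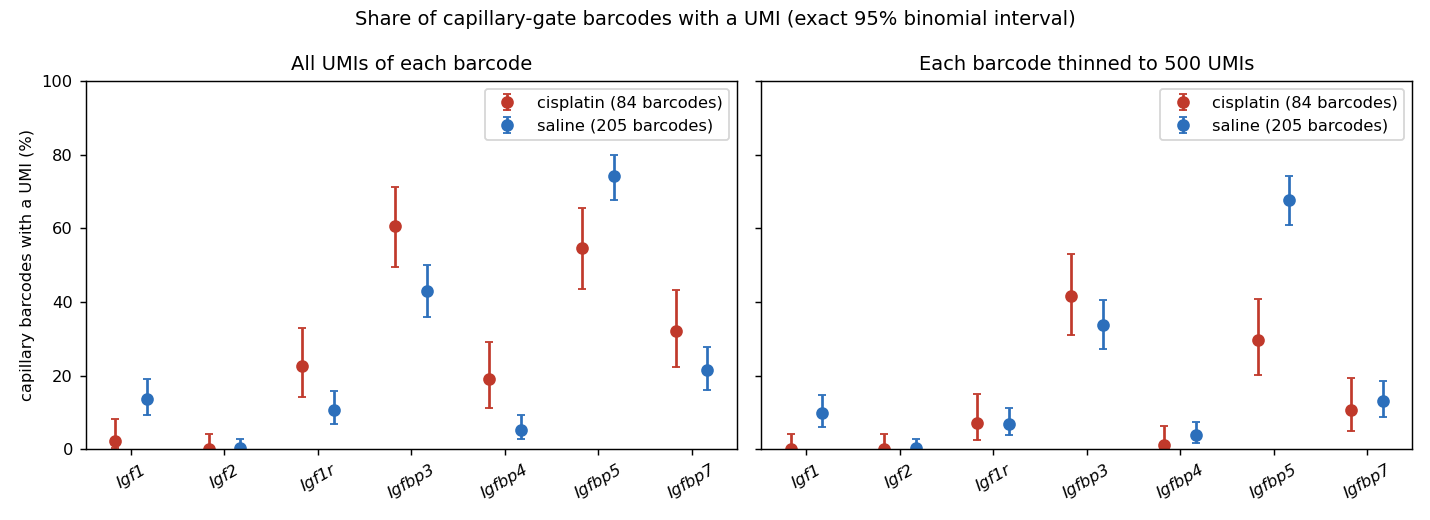
Percent of capillary-gate barcodes with a UMI of each member, from all UMIs (left) and after thinning each barcode to 500 UMIs (right), cisplatin left of saline, with exact 95% binomial intervals. At equal depth the intervals of Igfbp5 (29.8% in cisplatin, 67.8% in saline) and Igf1 (0% and 9.76%) do not overlap, and those of Igfbp3 and Igfbp7 do.

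Igfbp5, a matrix-bound binding protein, was lower in the cisplatin library in the capillary and glomerular gates. Capillary barcodes had 680 UMIs (1644 CPM) in cisplatin and 1159 UMIs (5721 CPM) in saline, a ratio of 0.287 (0.261 to 0.316). Positive barcodes were 54.8% (43.5 to 65.7) in cisplatin and 74.1% (67.6 to 80.0) in saline, and at 500 UMIs each 29.8% (20.3 to 40.7) and 67.8% (60.9 to 74.1). The cisplatin UMIs were also less evenly spread: 2 barcodes held 38.1% of them, against 7.59% in saline. In barcodes of 500 to 2000 UMIs, of which there were 42 in cisplatin and 198 in saline, the ratio was 0.228. Among barcodes free of 2 or more markers of another class it was 0.0705 (0.0350 to 0.127), with 11 and 750 UMIs. The direction was the same in 12 of 12 alternatives.

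Glomerular barcodes showed the same direction, with 615 Igfbp5 UMIs (1653 CPM) in cisplatin and 99 UMIs (4307 CPM) in saline. The ratio was 0.384 (0.310 to 0.479), and 11 of 11 alternatives kept its direction, from 0.278 to 0.554. Asking for at least 3 class markers left these counts at 615 and 99 UMIs and so is no check on it. Positive barcodes were 29 of 34 (85.3%) in cisplatin and 17 of 22 (77.3%) in saline, at median depths of 4995.5 and 1009 UMIs. At 500 UMIs each the shares were 55.9% (37.9 to 72.8) in cisplatin and 72.7% (49.8 to 89.3) in saline, with intervals that overlapped. The capillary over glomerular ratio was 0.995 in cisplatin (0.890 to 1.11) and 1.33 in saline (1.08 to 1.65). Arterial barcodes were far lower in both libraries, with 18 UMIs (141 CPM) in cisplatin and 110 UMIs (170 CPM) in saline. The arterial ratio of 0.829 (0.474 to 1.37) did not pass the fold.

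In tubule barcodes Igfbp5 had 329 UMIs (218 CPM) in cisplatin and 80 UMIs (552 CPM) in saline, a ratio of 0.394 (0.308 to 0.510). Both levels lay under those of near-empty droplets, which held 295 CPM in cisplatin and 836 CPM in saline, a near-empty ratio of 0.353 (0.324 to 0.385). The part of free RNA in the tubule Igfbp5 ratio was not tested. Free RNA at the share given by proximal tubule markers would account for 11.3 of 680 capillary UMIs in cisplatin and 9.94 of 1159 in saline.

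**Figure D3:**
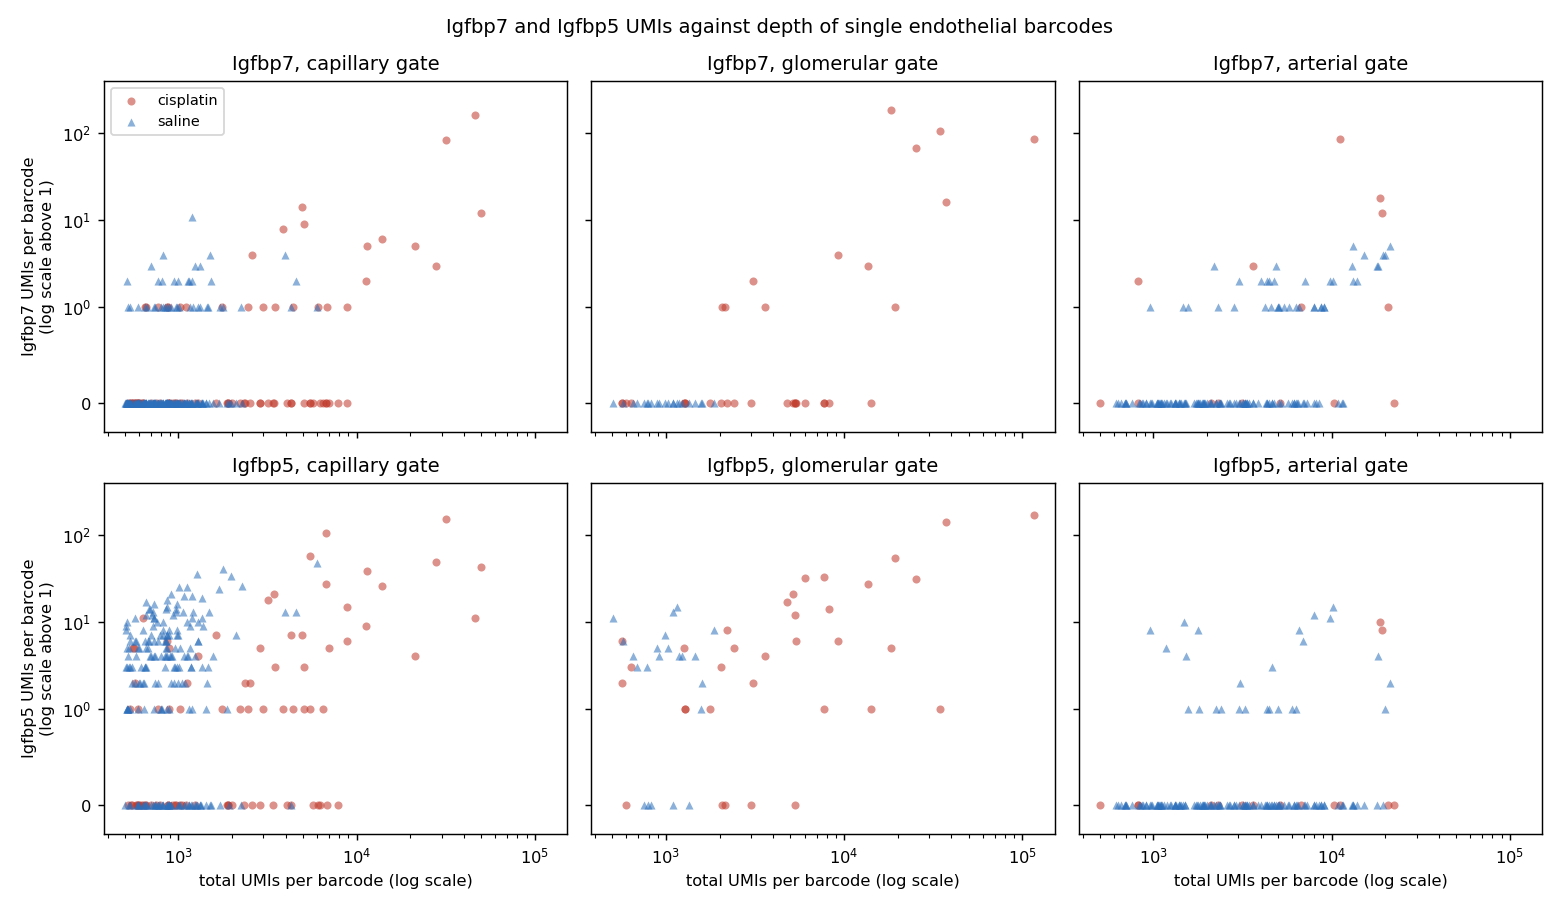
UMIs of Igfbp7 (top) and Igfbp5 (bottom) in single barcodes against the total UMIs of the barcode, both on log scales, for the capillary, glomerular and arterial gates, cisplatin as circles and saline as triangles. High Igfbp7 counts sit in a few deep cisplatin barcodes, whereas Igfbp5 is spread over shallow saline capillary barcodes.

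Igfbp7, a distant family member that binds IGFs weakly and is known in humans as a urinary marker of acute kidney injury, was higher in cisplatin in all 3 endothelial gates by summed UMIs, but in few barcodes. Capillary barcodes had 329 UMIs (795 CPM) in cisplatin and 79 UMIs (390 CPM) in saline, a ratio of 2.04 (1.59 to 2.64). Of the 329, 246 (74.8%) lay in 2 barcodes. With barcodes weighted equally the mean was 319 CPM in cisplatin and 364 CPM in saline. At up to 10000 UMIs per barcode, 50 and 79 UMIs gave 0.641 (0.441 to 0.925), and thinning to 500 UMIs gave 0.989, so the direction turned with the setting. Positive barcodes at 500 UMIs were 10.7% (5.02 to 19.4) in cisplatin and 13.2% (8.86 to 18.6) in saline. Capillary barcodes with fewer than 2 markers of each other class held 1 UMI in 21 cisplatin and 56 in 144 saline barcodes. The ratio among them was 0.0858 (0.00214 to 0.498).

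Glomerular barcodes had 472 Igfbp7 UMIs (1268 CPM) in 12 cisplatin barcodes and 0 UMIs in 22 saline barcodes, at least 9.72-fold higher against a floor of 3 UMIs in the saline library. Of the 472, 463 (98.1%) lay in 8 barcodes above 10000 UMIs. The other 26 cisplatin glomerular barcodes had 9 Igfbp7 UMIs (96.3 CPM), a level below the saline floor of 131 CPM, so no fold is given. Podocyte-gate barcodes had 29 Igfbp7 UMIs (3260 CPM) in 11 cisplatin barcodes and 32 UMIs (9783 CPM) in 1 saline barcode, and stromal-gate barcodes 456 UMIs (5462 CPM) in 19 and 27 UMIs (5078 CPM) in 3. In the cisplatin glomerular gate all 16 podocyte markers were detected, at 3400 CPM summed, against 2 of 16 and 261 CPM in saline. Stromal markers there summed to 309 CPM in cisplatin and 43.5 CPM in saline. Among the 5 cisplatin and 11 saline glomerular barcodes with fewer than 2 markers of each other class, Igfbp7 had 0 UMIs in both libraries. Igfbp5 kept 14 UMIs in cisplatin and 53 in saline there. The part of podocyte or stromal RNA in the Igfbp7 ratio was not tested.

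Arterial barcodes had 122 Igfbp7 UMIs (957 CPM) in cisplatin and 77 UMIs (119 CPM) in saline, a ratio of 8.02 (5.98 to 10.8). A single cisplatin barcode held 85 of the 122. Barcodes of up to 10000 UMIs held 6 in 9 cisplatin and 40 in 136 saline barcodes, a ratio of 2.60 (0.902 to 6.18). With mixed profiles left out, 3 cisplatin barcodes held 3 UMIs (607 CPM) and 61 saline barcodes 12 (97.5 CPM). The interval of that ratio was 1.13 to 23.1. The direction was kept in 12 of 12 alternatives. Of these, asking for at least 3 class markers left the arterial counts at 122 and 77 UMIs and so is no check on it. Stromal markers in the arterial gate summed to 408 CPM in cisplatin and 23.2 CPM in saline, and their part in the ratio was not tested. Tubule barcodes had 756 UMIs (499.98 CPM) in cisplatin and 92 UMIs (635 CPM) in saline, a ratio of 0.788 (0.634 to 0.989) that did not pass the fold. There, 62 of the 92 saline UMIs came from 1 barcode, and the mean per barcode was 313 CPM in cisplatin and 238 CPM in saline. Without barcodes above 10000 UMIs the tubule direction turned, to 1.57 (1.09 to 2.36) on 461 cisplatin and 30 saline UMIs. The tubule direction held in 7 of 11 alternatives. The subtype and mixed-profile settings left the tubule counts at 756 and 92 UMIs and so are no check on it.

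Igfbp4, an inhibitory binding protein that the protease PAPP-A cuts, was low in capillaries and higher in cisplatin arterial barcodes. Arterial barcodes had 48 UMIs (377 CPM) in 8 of 15 cisplatin barcodes and 60 UMIs (92.95 CPM) in 29 of 150 saline barcodes, a ratio of 4.05 (2.71 to 6.02). The ratio was 1.86 (0.654 to 4.31) without barcodes above 10000 UMIs, on 6 and 56 UMIs. Capillary barcodes had 27 UMIs (65.3 CPM) in cisplatin and 12 UMIs (59.2 CPM) in saline, a ratio of 1.10, and free RNA would give 11.3 and 2.60 of these UMIs. Glomerular barcodes had 39 UMIs (105 CPM) in cisplatin and 5 (218 CPM) in saline, and tubule barcodes 298 (197 CPM) and 27 (186 CPM), below the near-empty levels of 294 and 218 CPM. Neither was called, since both intervals held 1.

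**Figure D4:**
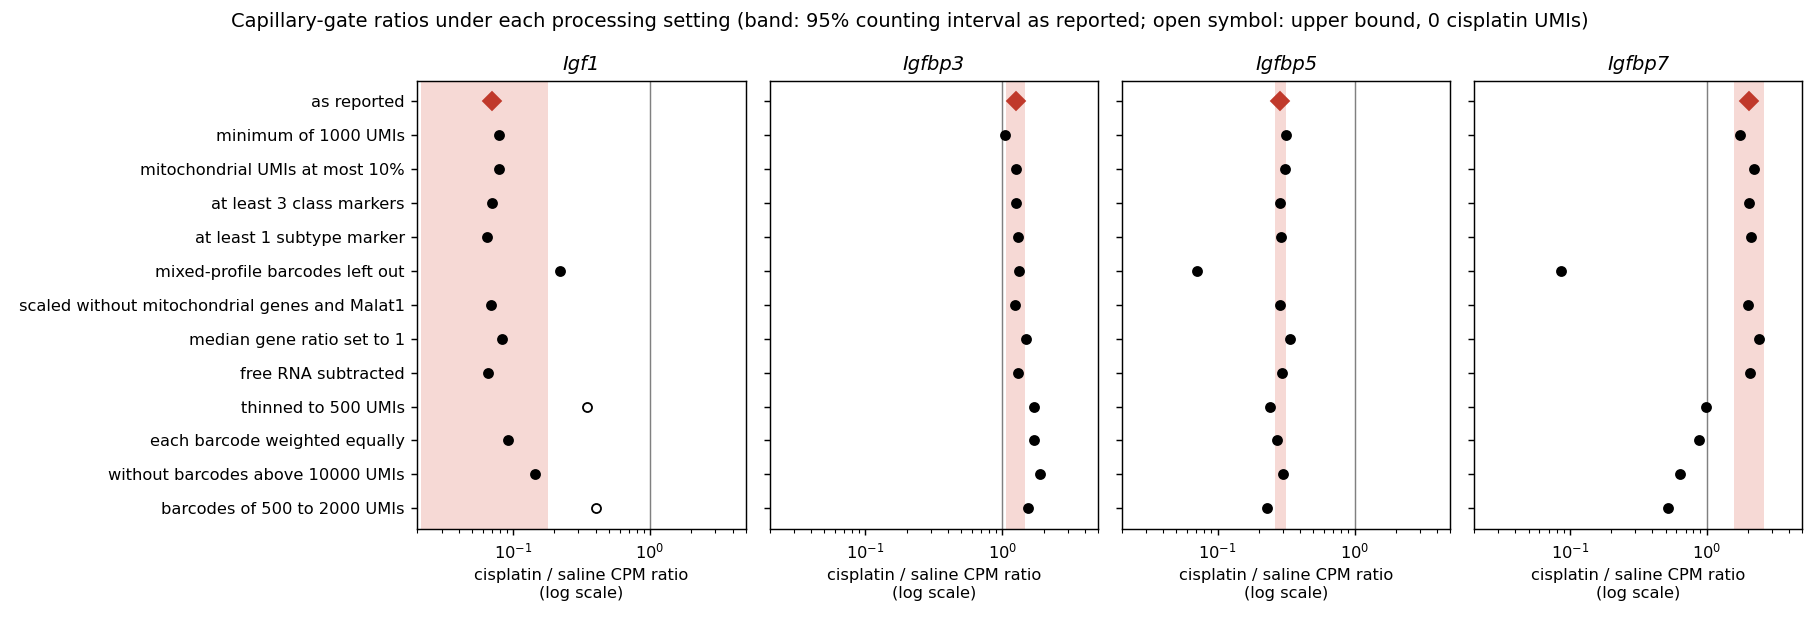
Cisplatin over saline CPM ratio (log scale) of Igf1, Igfbp3, Igfbp5 and Igfbp7 in the capillary gate as reported (diamond, with the counting interval as a band) and under 12 other settings (circles; open where cisplatin had 0 UMIs and the value is an upper bound). Igf1 and Igfbp5 stay below 1 and Igfbp3 above 1 in every setting drawn, while Igfbp7 lies on both sides of 1.

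By gate, the members called among those with at least 20 UMIs were as follows. In the capillary gate 1 of 6 was higher (Igfbp7), where 10.3% of all genes were, and 2 of 6 were lower (Igf1 and Igfbp5), where 10.2% were. Without barcodes above 10000 UMIs the higher member there was Igfbp3, and 3 were lower, Igf1, Igfbp5 and Igfbp7. In the glomerular gate 1 of 4 was higher (Igfbp7, background 3.36%) and 1 of 4 lower (Igfbp5, background 4.66%). In the arterial gate 4 of 6 were higher (Igf2, Igfbp3, Igfbp4 and Igfbp7, background 5.31%) and 0 lower (background 8.43%). Without barcodes above 10000 UMIs, 0 were higher and 1 was lower (Igfbp5) in that gate. In the tubule gate 0 of 5 were higher (background 3.75%) and 2 lower (Igf1r and Igfbp5, background 5.6%), and without barcodes above 10000 UMIs 1 was higher (Igfbp7) and 1 lower (Igfbp5). Median log2 ratios were taken over tested genes with UMIs in both libraries, which were 3221 of 3865 in the glomerular gate. The members' median was 0.05 in the capillary gate, -1.05 in the glomerular, 1.31 in the arterial and -0.34 in the tubule gate. Over all such genes it was -0.03, 0.01, -0.16 and -0.01. The glomerular member value is that of Igfbp4 and leaves out Igfbp7, which had 0 saline UMIs there. The backgrounds cover all barcodes of a gate. They were not computed without barcodes above 10000 UMIs, so the member counts of that setting have none. The members were chosen on these ratios, so nothing is read from those shares.

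Over all endothelial barcodes, 183 in cisplatin and 448 in saline, 2 of 7 members were higher (background 14.5%) and 2 lower (background 9.91%). That pool mixes gates in unlike proportions, since arterial barcodes gave 150 of the 448 in saline and 15 of the 183 in cisplatin. Igfbp7 stood at 5.63 and Igfbp3 at 1.81, Igf1 at 0.145 and Igf2 at 0.599. Igfbp5, lower in the capillary and glomerular gates, stood at 0.856 in the pool.

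Detection of the members, alone and in pairs, was counted by barcode. A UMI of at least 1 member was present in 71 of 84 capillary barcodes in cisplatin (84.5%) and 182 of 205 in saline (88.8%). Igfbp3 and Igfbp5 shared 30 cisplatin capillary barcodes, which is 58.8% of the Igfbp3-positive and 65.2% of the Igfbp5-positive ones. In saline they shared 73, which is 83.0% and 48.0%. In the arterial gate Igf2 and Igfbp4 met in 5 of 5 Igf2-positive barcodes of cisplatin and 10 of 39 of saline. Igfbp4 and Igfbp7 met in 0 of 448 endothelial barcodes of saline, with 48 and 93 positive. In cisplatin they met in 21 of 183, with 44 and 56 positive. Whether any pair met more or less often than independent genes would was not tested. These shares depend on depth, which differed between the libraries.

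Within saline arterial barcodes the members also varied with Calca and Thbs2, a pair of genes chosen for this split after values were seen. The 77 barcodes without either gene had Igf2 at 237 CPM and Igfbp4 at 292 CPM, against 43.1 and 15.1 CPM in the 73 barcodes with one. Igfbp7 ran the other way, at 49.6 CPM without and 147 CPM with. Median depth was 1832 UMIs without and 4994 with, and its part in this was not tested. In cisplatin all 40 Igf2 UMIs lay in the 12 arterial barcodes without either gene.

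Other genes of the pathway, 42 in number, covered the insulin and growth hormone receptors, adaptors, PI3 kinase and AKT signalling, proteases of binding proteins and matrix receptors. In the capillary gate 2 of 17 with enough UMIs were higher (background 10.3%) and 2 lower (background 10.2%). Insr, the insulin receptor, had 81 UMIs (196 CPM) in cisplatin and 20 (98.7 CPM) in saline (ratio 1.98, 1.20 to 3.42), and Itgav, an integrin subunit, had 24 and 0 UMIs, at least 3.92-fold higher. Tubule barcodes held Itgav at 261 CPM in cisplatin and 145 CPM in saline. The part of tubule RNA in the capillary Itgav count was not tested. Sos1, which activates RAS, stood at 0.462 (0.224 to 0.951), 1 of the 2 lower genes. In the glomerular gate 0 of 13 were higher or lower (background 3.36% and 4.66%). In the arterial gate 3 of 19 were higher (background 5.31%) and 1 lower (background 8.43%). Htra1, a protease that can cut binding proteins, had 37 UMIs (290 CPM) in cisplatin and 58 (89.9 CPM) in saline (ratio 3.23, 2.08 to 4.96), and the protease gene Adamts1 stood at 2.92 (1.80 to 4.67). Tsc2, which restrains mTOR, stood at 2.89 (1.05 to 7.39) and Pik3r1, the regulatory subunit of PI3 kinase, at 0.434 (0.219 to 0.782). Barcodes above 10000 UMIs held 80.3% of the arterial UMIs in cisplatin (6 barcodes) and 32.4% in saline (14 barcodes). No pathway call of any gate was repeated without such barcodes or without mixed profiles. In the tubule gate 4 of 30 were higher (background 3.75%) and 3 lower (background 5.6%). The higher ones included Adamts1 at 2.96 (1.33 to 8.16), Itgav at 1.80 (1.16 to 2.95) and Irs2, an adaptor of the receptors, at 5.94 (1.03 to 238) on 62 and 1 UMIs, and Tsc2 was among the lower ones at 0.538 (0.324 to 0.944). Median log2 ratios were again taken over tested genes with UMIs in both libraries. For the pathway genes they were -0.01 in the capillary, -0.18 in the glomerular, -0.31 in the arterial and 0.29 in the tubule gate.

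The genes whose level most resembled that of each member were ranked by Pearson's r of log2(CPM + 10) over 8 combinations of gate and library, among 6161 genes with at least 100 UMIs. These 8 points were the capillary, glomerular and tubule gates of both libraries, the saline arterial gate and the cisplatin leukocyte gate. Gates with fewer than 20 barcodes were left out, among them the cisplatin arterial gate with 15. The points share 2 libraries and differ in depth, and r is a description. Igfbp3 went with Irx3 (0.947), Rgcc (0.933) and Tmem252 (0.912), of which Rgcc and Tmem252 are markers that defined the capillary gate. Igfbp5 went with Stard8 (0.974), Ptpru (0.962) and Pitpnc1 (0.957). Igfbp7 went with Aktip (0.977), Pear1 (0.975) and Per1 (0.974). Igf1r went with Tnrc6a (0.987), Akr7a5 (0.978) and Tardbp (0.977), and Igfbp4 with Kmt2a (0.989), Mkln1 (0.984) and Sestd1 (0.980). Igfbp3 and Igfbp5 had an r of 0.40 with each other, and Igfbp5 and Igfbp7 of 0.12. Igf1 and Igf2 had too few UMIs for this ranking.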

How the data were processed

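The authors deposited unfiltered UMI count matrices (whole numbers, not normalized). Reads were processed with Cell Ranger 6.0.1 and mm10, per the submitters' processing notes, whereas the matrices carry a Cell Ranger 4 mark, per the file headers. Barcodes with at least 500 UMIs and at most 20% mitochondrial UMIs were gated by markers (at least 2, and more than of any other of 5 classes; endothelial subtypes likewise). The members, lists and markers were chosen with earlier results of these data known. Counts were summed per gate and library and given as CPM; no doublet caller was run. Ratios have exact conditional binomial (Clopper-Pearson) 95% intervals, shares exact binomial ones and levels exact Poisson ones; all cover counting error only, and with 1 library per group no test was run. A count of 0 was set to a floor of 3 UMIs per library. Near-empty droplets (1 to 100 UMIs) held 2140605 UMIs in cisplatin and 3703779 in saline and gave the free-RNA profile. The genes named were all 7 members, up to 4 pathway genes per gate by the interval bound nearest 1, and the 3 most similar genes per member. Some items of the lists are not reported here. The ratio and interval code was tested on simulated data. Python 3.11.15, numpy 2.4.6, scipy 1.17.1 and pandas 2.3.3 were used.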

Additional observations from a re-analysis of the deposited data

Results flagged for a closer look

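By summed UMIs the Igfbp7 ratio lay above 1 in the endothelial gates and below 1 in the tubule gate, where it did not pass the fold. The cisplatin over saline ratio was 2.04 in the capillary gate, at least 9.72 in the glomerular gate and 8.02 in the arterial gate, against 0.788 in the tubule gate. The difference between gates was not tested, since each ratio has 1 library on either side. Without barcodes above 10000 UMIs the capillary ratio was 0.641 and the tubule ratio 1.57, so both directions turned. Beside these stand the 2 capillary barcodes with 74.8% of the cisplatin UMIs, the 8 glomerular barcodes with 98.1%, and the 1 tubule barcode with 62 of 92 saline UMIs.

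Near-empty droplets, which entered no gate, also carried member UMIs. In the cisplatin library Igfbp7 stood 2.23-fold above saline there (446 against 200.1 CPM), Igfbp3 1.35-fold (126 against 93.4 CPM) and Igfbp4 1.35-fold (294 against 218 CPM). The cisplatin over saline ratio of the other members there was below 1, at 0.320 for Igf1, 0.554 (0.216 to 1.27) for Igf2, 0.505 for Igf1r and 0.353 for Igfbp5.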

How the results depend on the processing

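No paired analysis was possible because each group has 1 library. Over 12 alternatives the capillary ratios of Igf1 (0.0643 to 0.400), Igfbp3 (1.04 to 1.88) and Igfbp5 (0.0705 to 0.341) kept their direction. With a minimum of 1000 UMIs, capillary Igfbp3 was 1.04, capillary Igfbp5 0.316, glomerular Igfbp7 at least 6.21, tubule Igfbp5 0.737 and the saline share with Igfbp3 50.8%. With at most 10% mitochondrial UMIs, tubule Igfbp5 was 0.298. Leaving out mixed profiles kept 21 and 144 capillary barcodes and gave 0.219 for capillary Igf1, 0.0705 for Igfbp5 and 0.0858 for Igfbp7 (1 and 56 UMIs), 0.278 for glomerular Igfbp5, 1.04 for arterial Igfbp4 and 0.745 for Igfbp7 over all endothelial barcodes. With the median gene ratio set to 1, a shift of -0.25 log2 in the capillary gate, Igfbp3 was 1.48 and Igfbp5 0.341. Thinned to 500 UMIs, the capillary ratios were at most 0.349 for Igf1, 1.72 for Igfbp3, 0.240 for Igfbp5 and 0.989 for Igfbp7. Thinned glomerular Igfbp5 was 0.537 and Igfbp7 at least 1.73, and arterial Igfbp7 was 20.0 (8 and 4 UMIs). The thinned capillary shares were 0% for Igf1, 41.7% for Igfbp3 and 29.8% for Igfbp5 in cisplatin and 33.7% for Igfbp3 in saline.

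The following settings were chosen after the data were seen. With each barcode weighted equally, capillary Igfbp3 was 1.71 and Igfbp7 0.876, arterial Igfbp4 1.78 and Igfbp3 0.965. Without barcodes above 10000 UMIs, capillary Igfbp3 was 1.88 and Igfbp7 0.641, arterial Igf2 0.982, Igfbp3 at most 0.826, Igfbp4 1.86 and Igfbp7 2.60; the number of members called higher was 0 in the glomerular and 0 in the arterial gate, and lower 1 in the arterial gate. In barcodes of 500 to 2000 UMIs, capillary Igf1 was at most 0.400, Igfbp3 1.53, Igfbp5 0.228 and Igfbp7 0.519, and glomerular Igfbp5 was 0.554. The arterial gate then held 3 cisplatin and 60 saline barcodes. Arterial Igf2 was 5.48 (2 and 13 UMIs), Igfbp4 1.11 (1 and 32 UMIs) and Igfbp7 23.7 (2 and 3 UMIs). Over all endothelial barcodes of that depth Igfbp7 was 0.826. By the fold of 1.5 alone, 3 glomerular members were lower. Shares of all genes were computed under the main setting only. Neither this count nor those without barcodes above 10000 UMIs can be set against one. The causes were not tested. Glomerular Igfbp7 has no value under 5 settings. Cisplatin also held 0 UMIs with mixed profiles left out and in barcodes of 500 to 2000 UMIs, cisplatin lay below the saline floor without barcodes above 10000 UMIs, too few glomerular genes met the count minimum for a median gene ratio, and no bound was computed with equal weight per barcode. Depth limits Igf1, Igf2 and every glomerular, leukocyte and podocyte value of the saline library.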
